A study of Mus musculus with 23 samples.

Results

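The genes examined were the 4 mouse genes for platelet-derived growth factor (PDGF) chains, Pdgfa, Pdgfb, Pdgfc and Pdgfd, and the gene for the PDGF alpha receptor, Pdgfra. They were taken by symbol from a table of 54347 genes, and all 5 were found. All 5 were also among the 17190 genes that passed the filter on low counts over all libraries. Each was described in cells dissociated from the labial cervical loop of lower incisors, where the dental epithelium meets the mesenchyme around it. All cells came from mice at postnatal day 2 (P2) of a Sox2-GFP line, in which the endogenous Sox2 promoter drives the fluorescent reporter, and no other treatment is given in the labels. Fluorescence sorting separated cells labelled Sox2-Positive, called dental epithelial stem cells, from cells labelled Sox2-Negative, and Smart-seq2 RNA libraries were made from each. Batch A had 6 Sox2-negative and 6 Sox2-positive libraries, and batch B, from other mice on another day, had 4 and 7. The labels do not say whether libraries of a batch came from separate mice, so p-values measure the spread between libraries, which may be technical.

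Total counts ran from 2.31 M (megacounts) to 9.54 M over the 23 libraries, with a median of 4.83 M, and 3 counts, taken as the floor of detection, were worth 0.357 to 1.30 CPM (counts per megacount of a library). Levels are given as CPM, scaled between libraries by the TMM method. Sox2 itself had 14 to 64 counts in batch A Sox2-positive libraries and 37 to 121 in batch B, against 0 to 1 and 0 to 10 in Sox2-negative libraries. All 7 epithelial markers (among them Epcam and Krt14) were higher and all 9 mesenchymal markers (among them Col1a1, Twist1 and Msx1) were lower in Sox2-positive cells in both batches. Markers of ameloblasts, the enamel-forming cells of the dental epithelium, went the other way from the epithelial list. Their sum averaged 867 CPM in Sox2-negative and 324 CPM in Sox2-positive libraries of batch A, and 656 and 8.48 CPM in batch B. The 4 that passed the filter were all called lower in Sox2-positive cells over both batches. Markers of other cell types differed between the batches within each population. The summed level of 5 Schwann cell markers was 699 to 893 CPM in batch A Sox2-positive libraries and 28.0 to 54.1 CPM in batch B. That of 4 skeletal muscle markers was 0.443 to 5.58 CPM in the former and 178 to 330 CPM in the latter. In Sox2-negative libraries, 5 endothelial markers summed to between 575 and 828 CPM for batch A and between 124 and 210 CPM for batch B, and 4 erythroid markers to 572 to 749 CPM and 30891 to 34261 CPM. Batch B libraries 1 and 2 of the populations deviated from their group means together, though weakly (r = 0.0541 to 0.0839 over 11092 genes). Sox2-negative library 3 and Sox2-positive library 6 of batch B had r = 0.0673, so these values alone do not single out libraries 1 and 2. The labels give no such split. Batch B results are also given without libraries 1 and 2 of each population, 4 libraries in all. In such sorted bulk samples, fewer cells of a type and less RNA per cell cannot be told apart.

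PDGF chains are secreted as dimers that bind receptor tyrosine kinases. The A and C chains act mainly through the alpha receptor, the D chain through the beta receptor Pdgfrb, and the B chain through both, while C and D chains must first be cut by proteases outside or at the surface of the cell. In developing teeth and other epithelial organs the A chain is typically made by epithelium and the alpha receptor by the neighbouring mesenchyme, and the B chain of blood vessel endothelium recruits pericytes that carry the beta receptor.

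The genes lie on 4 chromosomes of the GRCm38 (mm10) build. Pdgfa (ENSMUSG00000025856.15) spans chr5:138976014-138997370 on the minus strand and Pdgfra (ENSMUSG00000029231.15) chr5:75152292-75198215 on the plus strand. Pdgfb (ENSMUSG00000000489.7) spans chr15:79995874-80014977 on the minus strand, Pdgfc (ENSMUSG00000028019.9) chr3:81036416-81214040 on the plus strand and Pdgfd (ENSMUSG00000032006.15) chr9:6168584-6378850 on the plus strand. RefSeq promoter entries of build GRCm38.p6 matched 4 of the 5 genes, all but Pdgfb. The 250 bases before an annotated start are shown for Pdgfa and Pdgfra because these 2 genes had the largest population differences, in opposite directions. Each is written 5′ to 3′ on the strand of its gene, Pdgfa from chr5:138994945-138995194 (minus strand) and Pdgfra from chr5:75152001-75152250 (plus strand), with GC boxes in capitals.
Pdgfa promoter: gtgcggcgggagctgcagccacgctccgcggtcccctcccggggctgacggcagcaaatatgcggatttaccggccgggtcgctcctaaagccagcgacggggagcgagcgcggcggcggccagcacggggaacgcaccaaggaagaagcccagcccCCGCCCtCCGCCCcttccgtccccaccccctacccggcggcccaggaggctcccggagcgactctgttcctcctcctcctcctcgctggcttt
Pdgfra promoter: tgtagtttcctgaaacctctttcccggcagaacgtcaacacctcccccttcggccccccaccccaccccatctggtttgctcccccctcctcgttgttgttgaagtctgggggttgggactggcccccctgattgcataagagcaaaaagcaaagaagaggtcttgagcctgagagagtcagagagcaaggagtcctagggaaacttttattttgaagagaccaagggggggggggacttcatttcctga
The Pdgfa window had 72.4% G and C, against 54.4% in the Pdgfra window and a median of 52.4% over all 32851 promoter windows of that length. It held 2 GC boxes (GGGCGG, searched on both strands), beginning 93 and 86 bases before the start, a word that 32.7% of all windows hold. In the Pdgfra window there was no GC box, no TATA box (TATAAA, in 12.4% of all windows) and no core of the SOX motif (ACAAAG or ACAATG, in 25.2%), all searched on both strands. Another Pdgfa start in RefSeq, with the window chr5:138994282-138994531, had 1 GC box and 1 SOX core. These matches describe letters only, since binding was not measured here.

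Over both batches, edgeR called a population difference (adjusted p under 0.05) for 3 of the 5 genes, and for 57.5% of all genes tested. Pdgfa was higher in Sox2-positive cells, and Pdgfb and Pdgfra were lower. Pdgfa was 1 of the 24.9% of genes called higher, and the other two were among the 32.5% called lower. Within batch A the same 3 of 5 were called, 1 higher and 2 lower, where 43.4% of all genes were called, 19.3% higher and 24.2% lower. Within batch B the called genes were Pdgfa and Pdgfd, both higher, and Pdgfra, lower, where 54.7% of all genes were called, 27.1% higher and 27.6% lower. The ligand chains and the receptor thus fell into different patterns, described in turn below.

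**Figure D1:**
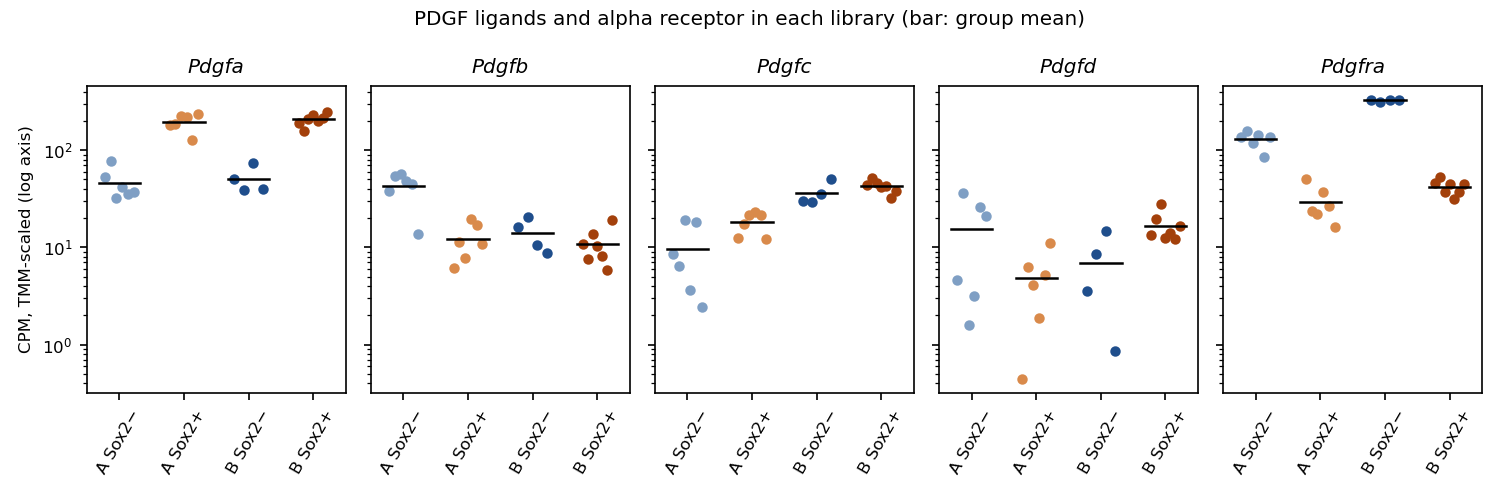
Level of each gene in each of the 23 libraries, in TMM-scaled CPM on a log axis, with points for libraries and bars for group means. Pdgfa and Pdgfra separate the populations in both batches in opposite directions, while Pdgfb stands high in 5 of 6 batch A Sox2-negative libraries and Pdgfc follows the batch.

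Pdgfa, the A chain, was higher in Sox2-positive cells by nearly the same amount in both batches. In batch A Sox2-negative libraries it ran from 31.9 to 77.8 CPM with a median of 39.5, and in Sox2-positive libraries from 127 to 233 with a median of 203. In batch B the 4 Sox2-negative libraries had 51.1, 39.0, 73.9 and 40.3 CPM, and the 7 Sox2-positive libraries ran from 159 to 247 with a median of 209. The highest Sox2-negative library thus lay below the lowest Sox2-positive library in each batch and across batches. Group means were 46.2 ± 17.2 (SD, n = 6), 196 ± 40.1 (n = 6), 51.1 ± 16.1 (n = 4) and 207 ± 28.1 CPM (n = 7). The log2 difference was 2.09 in batch A (SE 0.22, adjusted p = 1.58e-06) and 2.09 in batch B (SE 0.19, adjusted p = 1.46e-07), or 4.26-fold in each, and 1.98 in batch B without libraries 1 and 2 (adjusted p = 2.62e-05). Between batches, the 95% interval of the log2 difference was -0.29 to 0.58 in Sox2-negative cells (adjusted p = 0.750) and -0.29 to 0.45 in Sox2-positive cells (adjusted p = 0.889). Each group lay near its counterpart in the other batch. The Sox2-positive libraries of batch A held the Schwann cell markers and those of batch B the muscle markers. The part of these cell types in the level of Pdgfa was not tested.

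Pdgfb, the B chain, was high in only 1 of the 4 groups. Batch A Sox2-negative libraries ran from 13.7 to 57.0 CPM with a median of 46.9, and batch A Sox2-positive libraries from 6.20 to 19.5 with a median of 11.1. The 4 batch B Sox2-negative libraries had 16.4, 20.7, 10.6 and 8.84 CPM, and the batch B Sox2-positive libraries ran from 5.81 to 19.0 with a median of 10.4. The range of batch A Sox2-negative libraries met those of the other groups through a single library, number 6, at 13.7 CPM, and the other 5 had 38.3 CPM or more. Group means were 42.9 ± 15.8, 12.1 ± 5.17, 14.1 ± 5.44 and 10.8 ± 4.44 CPM in the same order, and the last 3 groups overlapped each other. In batch A Pdgfb was lower in Sox2-positive cells by 3.53-fold (log2 difference -1.82, SE 0.38, adjusted p = 0.00115). In batch B the difference did not pass the test (log2 difference -0.32, 95% interval -1.02 to 0.38, adjusted p = 0.468), and it was 0.26 without libraries 1 and 2 (adjusted p = 0.705). Sox2-negative cells of batch B had 3.03-fold less Pdgfb than those of batch A (log2 difference -1.60, SE 0.42, adjusted p = 0.0125), and without Sox2-negative library 4 of batch B this call was lost (-1.41, adjusted p = 0.0527).

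Endothelial markers were also highest in batch A Sox2-negative cells. Their summed level (Pecam1, Cdh5, Kdr, Tek and Emcn) averaged 648 CPM in Sox2-negative libraries of batch A and 168 CPM in those of batch B, a 3.85-fold difference. All 5 were called lower in batch B Sox2-negative cells than in batch A. The sum was 271-fold higher in Sox2-negative than in Sox2-positive cells in batch A and 63.6-fold higher in batch B. In every Sox2-positive library of either batch the sum was at most 5.82 CPM, and Pdgfb in those libraries averaged 12.1 and 10.8 CPM. Library 6 of batch A Sox2-negative cells, the one with little Pdgfb, had an endothelial sum of 615 CPM, within the range of the other 5. Platelet markers, the other source considered for the B chain, summed to 59.6 and 66.4 CPM in the Sox2-negative libraries of batches A and B. Single platelet genes went different ways there, with means of 31.3 and 56.6 CPM for Gp1bb, 20.1 and 5.47 CPM for Pf4, and 8.33 and 4.38 CPM for Itga2b. None of these 3 was called different between the Sox2-negative cells of the batches. Leukocyte markers summed to 389 and 132 CPM in the same libraries, 2.96-fold less in batch B, with 2 of 5 called lower there. The part of vessel cells or leukocytes in the Pdgfb difference was not tested.

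**Figure D2:**
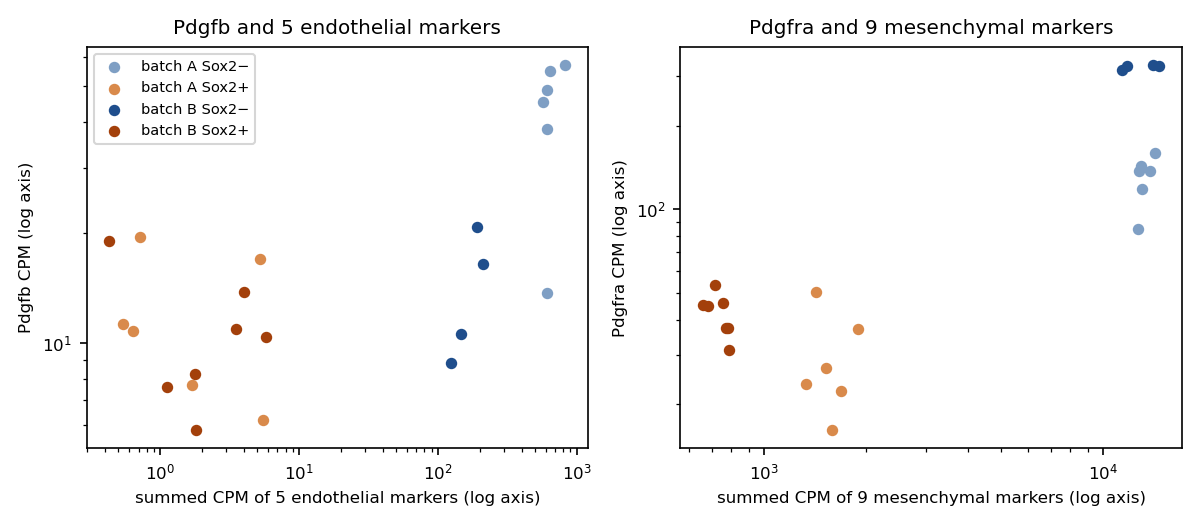
Left, Pdgfb against the summed level of 5 endothelial markers, and right, Pdgfra against the summed level of 9 mesenchymal markers, with 1 point per library in CPM on log axes. Batch A Sox2-negative libraries hold most Pdgfb and most endothelial marker RNA, with library 6 (13.7 CPM of Pdgfb) as the exception, and Sox2-negative libraries of batch B have more Pdgfra than those of batch A at about the same mesenchymal sum.

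Pdgfc, the C chain, followed the batch and not clearly the sort. Batch A Sox2-negative libraries ran from 2.42 to 19.0 CPM with a median of 7.47, and batch A Sox2-positive libraries from 12.3 to 23.2 with a median of 19.6. The 4 batch B Sox2-negative libraries had 29.9, 29.4, 35.6 and 50.3 CPM, and the Sox2-positive libraries ran from 32.5 to 51.4 with a median of 42.7. Every batch B library therefore lay above every batch A library, and within each batch the populations overlapped. Group means were 9.71 ± 7.23, 18.1 ± 4.85, 36.3 ± 9.74 and 42.5 ± 5.93 CPM. Batch B exceeded batch A by 3.72-fold in Sox2-negative cells (log2 difference 1.89, SE 0.39, adjusted p = 0.00177) and by 2.35-fold in Sox2-positive cells (1.23, SE 0.34, adjusted p = 0.0188). The latter call was lost without batch B libraries 1 and 2 of each population (1.15, adjusted p = 0.105). The population difference was 0.57 on the log2 scale over both batches (95% interval 0.05 to 1.09, adjusted p = 0.0665), and DESeq2 called it (0.58, adjusted p = 0.0422).

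Pdgfd, the D chain, had the lowest count in a single library of the 5 genes and in 3 of the 4 groups the widest relative spread. Its counts ran from 6 to 168 in batch A Sox2-negative libraries, 2 to 69 in their Sox2-positive counterparts, and 5 to 90 and 38 to 181 in Sox2-negative and Sox2-positive libraries of batch B. In CPM, batch A Sox2-negative libraries ran from 1.58 to 35.9 with a median of 12.9, and batch A Sox2-positive libraries from 0.443 to 11.0 with a median of 4.69. The 4 batch B Sox2-negative libraries had 3.57, 8.55, 14.7 and 0.850 CPM, and the batch B Sox2-positive libraries ran from 12.2 to 27.8 with a median of 14.0. Batch B Sox2-positive libraries were the most even group, and they lay above all batch A Sox2-positive libraries, although that difference missed the threshold in edgeR (log2 difference 1.76, 95% interval 0.45 to 3.07, adjusted p = 0.10). DESeq2 (1.76, adjusted p = 0.0499), limma-voom (2.21, adjusted p = 0.00681) and edgeR without a filter (1.78, adjusted p = 0.0476) called it. Coefficients of variation were 92.8%, 76.7%, 88.0% and 34.0% in the order of the groups above.

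The population difference of Pdgfd had opposite signs in the 2 batches. In batch A it was -1.65 on the log2 scale and did not pass the test (SE 0.79, adjusted p = 0.102). In batch B Pdgfd was higher in Sox2-positive cells by 2.52-fold (log2 difference 1.33, SE 0.52, adjusted p = 0.0406), a call lost without libraries 1 and 2 of both populations (1.12, adjusted p = 0.259). Leaving out single libraries moved the batch B value between 0.97 and 2.02, and the call was lost without Sox2-negative library 1, 2 or 4, or without Sox2-positive library 2, 3 or 7. The value of 2.02 was reached without Sox2-negative library 3, which had the most Pdgfd of its group. All 4 skeletal muscle markers (in sum 236 CPM against 1.66 CPM) were also called higher in the Sox2-positive libraries of batch B than of batch A. Of the pericyte and smooth muscle markers Acta2 (205 against 30.9 CPM) and Cspg4 (71.1 against 40.5 CPM) were called higher, and Rgs5 (1.42 against 0.918 CPM, adjusted p = 0.616) and Notch3 (6.87 against 3.51 CPM, adjusted p = 0.0794) did not pass. Their part in the level of Pdgfd was not tested.

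Levels of different genes were compared per kilobase of the longest annotated transcript. If the deposited counts were already adjusted for length, which is not stated, this divides by length again. Without the division, Pdgfa and Pdgfb averaged 46.2 and 42.9 CPM in batch A Sox2-negative libraries. Pdgfb was then above Pdgfa in libraries 3, 4 and 5 of that group and below it in libraries 1, 2 and 6. On that scale Pdgfa was the most abundant ligand transcript in the mean of every group, at 22.4 and 24.8 CPM per kilobase in Sox2-negative cells of batches A and B and 95.2 and 101 in Sox2-positive cells. The next ligand was Pdgfb in batch A Sox2-negative cells (14.6 CPM per kilobase), and Pdgfc in the other groups (5.14 in Sox2-positive cells of batch A, and 10.3 and 12.1 in Sox2-negative and Sox2-positive cells of batch B). Pdgfd was at 4.92, 1.54, 2.21 and 5.28 CPM per kilobase in the same order of groups as for Pdgfb above. Pdgfa exceeded the sum of the other 3 ligands by 9.59-fold on average in batch A and 4.94-fold in batch B Sox2-positive cells, against 1.08-fold and 1.43-fold in Sox2-negative cells.

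The make-up of the ligand pool was then compared as the share of each chain in the summed ligand counts per kilobase of a library, a measure in which library scaling cancels. Pdgfa made up 89.5% ± 4.12 (SD, n = 6) of the pool in the Sox2-positive cells of batch A, against 50.3% ± 10.3 (n = 6) in its Sox2-negative cells (two-sided exact permutation p = 0.00216, or 0.00485 adjusted over the 8 comparisons made). The shares in batch B were 82.5% ± 3.64 (n = 7) and 58.0% ± 7.24 (n = 4, exact permutation p = 0.00303, adjusted p = 0.00485). The lowest Sox2-positive library had a larger Pdgfa share than the highest Sox2-negative library in both batches (82.0% against 60.5% in batch A, 76.6% against 66.1% in batch B). These p-values are the smallest the exact test can give at these group sizes.

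What took up the rest of the pool in Sox2-negative cells differed between the batches. In batch A the largest mean share after Pdgfa was that of Pdgfb, with 32.7% in Sox2-negative against 4.05% in Sox2-positive libraries (exact permutation adjusted p = 0.00485). In batch B it was that of Pdgfc, with 25.2% against 10.1%, beside Pdgfb with 11.9% against 2.97% (exact permutation adjusted p = 0.00485 for both). Without batch B libraries 1 and 2 the differences there were 24.4 percentage points for Pdgfa, -19.5 for Pdgfc and -4.37 for Pdgfb (7.36% against 2.99%), and none passed after adjustment (exact permutation adjusted p = 0.0635 for each). With 5 against 2 libraries the exact test cannot go below 0.0476 before adjustment. The Pdgfc share did not pass in batch A (6.30% against 5.03%, exact permutation adjusted p = 0.636). The Pdgfd share was lower in batch A Sox2-positive libraries (1.47% against 10.7%, exact permutation p = 0.0238, adjusted p = 0.0317), a call lost when any 1 of the 6 Sox2-positive libraries was left out. In batch B the Pdgfd share was 4.39% against 4.90% (exact permutation adjusted p = 0.761). In batch B the levels of Pdgfc (log2 difference 0.30, edgeR adjusted p = 0.206) and Pdgfb (-0.32, edgeR adjusted p = 0.468) did not themselves pass a population test. Pdgfa, counted in the same pool, was 4.26-fold higher in Sox2-positive cells there. Shares of a pool are not independent of each other.

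**Figure D3:**
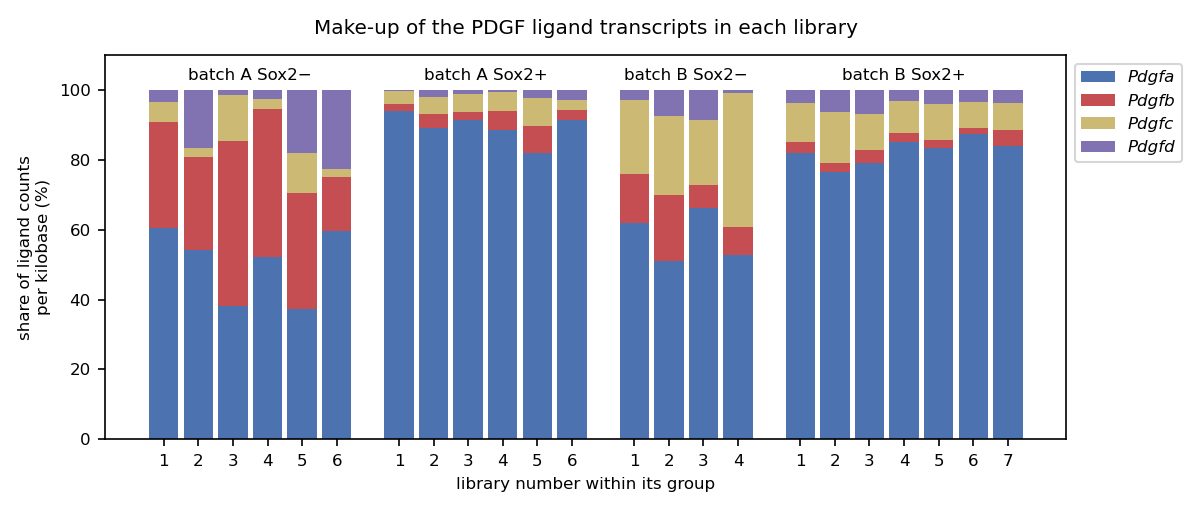
Share of each PDGF chain in the summed ligand counts per kilobase of each library, in percent, with 1 stacked bar per library. Pdgfa fills 76.6% or more of every Sox2-positive bar, and after Pdgfa the largest part of a Sox2-negative bar is Pdgfb in batch A, except library 6 (Pdgfd, 22.5%), and Pdgfc in all 4 batch B libraries.

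Pdgfra, the alpha receptor, showed the reverse of the Pdgfa pattern. Batch A Sox2-negative libraries ran from 84.7 to 159 CPM with a median of 137, and batch A Sox2-positive libraries from 16.1 to 50.3 with a median of 25.2. The 4 batch B Sox2-negative libraries had 328, 317, 329 and 326 CPM, and the 7 Sox2-positive libraries ran from 31.2 to 53.4 with a median of 45.1. The 2 populations did not overlap in either batch, and the batch B Sox2-negative libraries stood apart from all others with a coefficient of variation of 1.81%. Group means were 130 ± 25.7, 29.3 ± 12.4, 325 ± 5.87 and 42.3 ± 7.33 CPM. Pdgfra was lower in Sox2-positive cells by 4.41-fold in batch A (log2 difference -2.14, SE 0.26, adjusted p = 6.18e-06) and by 7.29-fold in batch B (-2.87, SE 0.13, adjusted p = 4.41e-11). Without libraries 1 and 2 the batch B difference was -3.03 (adjusted p = 3.95e-08).

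For Pdgfra the Sox2-negative cells of batch B ranked first, then those of batch A, then the Sox2-positive cells of batch B and last those of batch A. The first 2 differed by 2.51-fold (log2 difference 1.33, SE 0.22, adjusted p = 0.000137). The last 2 overlapped and did not pass the test (log2 difference 0.54, 95% interval 0.15 to 0.93, adjusted p = 0.0883), although without Sox2-positive library 1 of batch A, its highest, they did (0.77, adjusted p = 0.00624). The summed level of the mesenchymal markers was 13209 and 12946 CPM in the Sox2-negative libraries of batches A and B, a sum made up largely of collagen transcripts. Single markers went different ways: Vim was called lower in batch B (log2 difference -0.41, adjusted p = 0.0414), while Prrx1 averaged 117 and 231 CPM (0.99, adjusted p = 0.0680) and Twist1 25.6 and 47.7 CPM (0.90, adjusted p = 0.11) in batches A and B. The part of mesenchymal cells in the Pdgfra difference was not tested.

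Every Sox2-positive library had Pdgfra well above the floor, with 87 to 378 counts. Its level there was set beside the 9 mesenchymal markers, as the Sox2-positive mean in percent of the Sox2-negative mean. For Pdgfra this was 22.6% in batch A and 13.0% in batch B. The markers had 0 to 21.3% with a median of 2.36% in batch A, all below Pdgfra, and 0 to 19.6% with a median of 0.605% in batch B, where 7 of 9 were below. Vim (19.6% in both batches), the intermediate filament gene, and the collagen gene Col1a2 (19.0% and 18.1%) exceeded Pdgfra in batch B and lay below it in batch A. Another collagen gene, Col3a1, came nearest to Pdgfra in batch A with 21.3% but had 0.413% in batch B. The transcription factor genes did not: Twist1 was at 0 in all Sox2-positive libraries, Msx1 had 0.551% and 0.142%, and Prrx1 1.81% and 0.163%. Pdgfrb, the beta receptor, had 7.53% in batch A and 7.28% in batch B, less than Pdgfra in both. Which cells of the sorted Sox2-positive population held the Pdgfra transcripts was not tested.

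**Figure D4:**
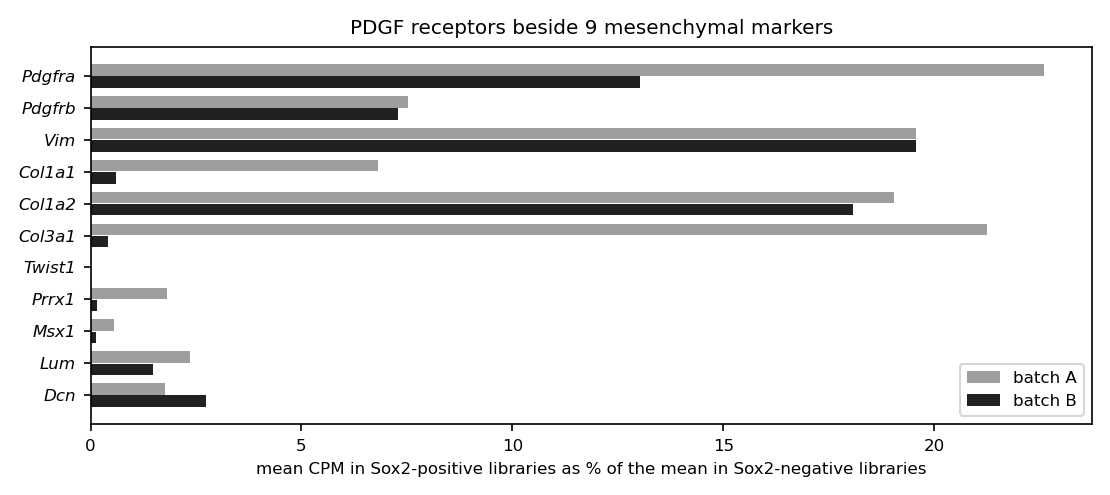
Mean CPM in Sox2-positive libraries as a percentage of the mean in Sox2-negative libraries of the same batch, for both PDGF receptors and 9 mesenchymal markers (grey, batch A; black, batch B). The Pdgfra bars reach 22.6% and 13.0%, Vim and Col1a2 bars lie between 18.1% and 19.6% in both batches and Col3a1 has 21.3% in batch A, while Twist1 is at 0 and Msx1, Prrx1, Lum and Dcn are all below 3%.

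Set against each other within a library, ligand and receptor transcripts shifted in opposite directions between the populations. The ratio of Pdgfa to Pdgfra, each per kilobase, ran from 0.896 to 1.62 in Sox2-negative libraries of batch A and from 0.409 to 0.744 in those of batch B. In Sox2-positive libraries it ran from 12.1 to 48.1 in batch A and from 9.86 to 21.4 in batch B. Sox2-negative cells of batch B thus had less Pdgfa than Pdgfra transcript in every library, and Sox2-positive cells of either batch had more in every library. The ratio follows from the 2 levels above and is a description of them. It depends on the division by length, without which Pdgfa and Pdgfra averaged 46.2 and 130 CPM in batch A Sox2-negative libraries.

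Whether the population differences themselves differed between the batches was tested as an interaction, the difference in batch B minus that in batch A. None of the 5 genes passed (edgeR), where 7.04% of all genes did. Before adjustment, p was under 0.05 for Pdgfb (log2 interaction 1.44, SE 0.54, adjusted p = 0.114), Pdgfd (2.92, SE 1.02, adjusted p = 0.0877) and Pdgfra (-0.79, SE 0.29, adjusted p = 0.111). DESeq2 called Pdgfb (1.47, adjusted p = 0.0444) and Pdgfd (2.95, adjusted p = 0.0305), and limma-voom called none of the 5 genes. The shares of all genes under the unadjusted threshold, or called by DESeq2 or limma-voom, are not given here. How unusual these results are among all genes is therefore not known. The Pdgfb interaction passed without Sox2-negative library 6 of batch A (1.61, adjusted p = 0.0441), and the Pdgfd interaction without Sox2-negative library 3 of batch A (3.16, adjusted p = 0.0446). For Pdgfa the interaction was -0.06 with a 95% interval of -0.64 to 0.51 (adjusted p = 0.950), and for Pdgfc it was -0.66 with an interval of -1.68 to 0.35 (adjusted p = 0.532). Between batches within a population, 3 of the 5 genes differed in Sox2-negative cells (Pdgfc and Pdgfra higher and Pdgfb lower in batch B), where 11.2% of all genes did, 5.85% higher and 5.35% lower. In Sox2-positive cells 1 of 5, Pdgfc, differed, being higher in batch B, where 10.4% of all genes differed and 4.85% were higher.

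**Figure D5:**
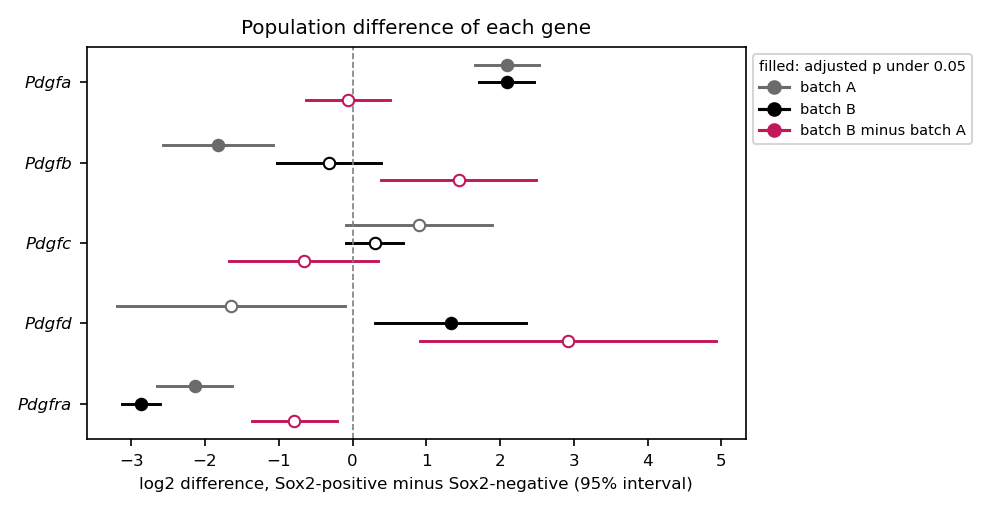
Log2 difference between Sox2-positive and Sox2-negative cells in batch A (grey) and batch B (black), and their difference (red), for each gene, with 95% intervals and filled points for an adjusted p under 0.05. Pdgfa has nearly equal differences of 2.09 in both batches, Pdgfd differences of opposite sign, and none of the red points is filled.

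The genes whose profile over the 23 libraries lay nearest to each of the 5 were found by the root mean square difference in log2 CPM, after each gene was centred on its own mean, among 11091 genes with a mean of at least 10 CPM. For Pdgfa they were Entpd4 (0.34), Fam234a (0.36) and Ezr (0.36), the last being the gene for ezrin, which ties the cell membrane to actin, where the median gene lay at 1.23. For Pdgfra they included Mmp2 (0.41), the gene for a gelatin-cutting matrix protease, and Rin2 (0.47), against 1.51 for the median gene. Mmp2 averaged 294, 79.7, 851 and 105 CPM in Sox2-negative and Sox2-positive libraries of batch A and then of batch B, which is the order of the Pdgfra levels. Pdgfb lay nearest to 9630050E16Rik (0.49), Trim26 (0.53) and Ptp4a3 (0.54). Pdgfc lay nearest to Fzd7 (0.68), a gene for a Wnt receptor, Nr1d2 (0.68) and Chst12 (0.70). Pdgfd had the least close neighbours, Il13ra1 (0.83), Ttc26 (1.06) and Amacr (1.10), against 1.60 for the median gene. All 23 points of such a profile share the sort and the batch.

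Other genes of the pathway were described from fixed lists over both batches, where all genes tested had a median log2 population difference of -0.12, and 24.9% of them were called higher and 32.5% lower. Of 5 receptor relatives, 4 passed the filter (Flt3 did not), 1 was higher and 3 were lower in Sox2-positive cells, with a median of -2.56. The lower ones included Pdgfrb (-3.75, SE 0.19, adjusted p = 4.36e-15), which averaged 151 and 140 CPM in Sox2-negative cells of batches A and B and 11.4 and 10.2 in Sox2-positive cells. Csf1r, the receptor gene of macrophages, was also lower, from 91.1 and 45.5 CPM to 2.02 and 0 (adjusted p = 1.62e-08). The higher one was Pdgfrl (1.27, SE 0.17, adjusted p = 4.17e-07), whose protein resembles the receptors outside the cell but has no kinase domain. Both signalling PDGF receptors were therefore lower in the cells with more Pdgfa.

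Of 11 genes for processing and carrying of the ligands, all passed the filter, 2 were higher and 7 lower, with a median of -0.60. The 2 higher ones were proteases, Furin (0.83, SE 0.14, adjusted p = 9.89e-06), which cuts precursor proteins in the secretory pathway, and St14 (1.66, SE 0.24, adjusted p = 1.57e-06), the gene for the epithelial membrane protease matriptase. Among the lower were Sparc (-1.53, SE 0.06, adjusted p = 7.45e-18), a matrix protein that binds PDGF, and Serpine2 (-0.31, SE 0.07, adjusted p = 0.000283), a protease inhibitor. The 5 relatives of the ligands divided, with 2 higher (Vegfb, 0.61, and Vegfc, 2.14) and 3 lower (among them Vegfa, -2.45, and Pgf, -4.14) and a median of -2.45. Vegfb did not pass within batch A alone (0.62, adjusted p = 0.0691).

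The shared signalling components downstream of the receptors were divided too. Of 25 adaptors and effectors 8 were higher, 6 lower and 11 not called, with a median of -0.07, and both the median and the shares called lay near those of all genes. Nras (1.11, SE 0.12), the gene for a RAS protein, was among the higher, and Pik3r1 (-1.58, SE 0.15), the regulatory subunit of phosphoinositide 3-kinase, and Mapk3 (-1.11, SE 0.12), the gene for the kinase ERK1, were among the lower. Of 9 dampeners, 2 were higher (Acp1, 0.50, and Spry2, 1.62) and 4 lower (among them Rasa1, -0.50, and Ptpn1, -0.69), with a median of -0.24, counts near the shares over all genes (24.9% higher, 32.5% lower). Acp1 did not pass within batch A alone (0.23, adjusted p = 0.290), and Rasa1 passed in neither batch alone (-0.54, adjusted p = 0.0945 in A, and -0.37, adjusted p = 0.0622 in B). Spry2, a feedback inhibitor of receptor tyrosine kinase signalling, averaged 63.7 and 44.3 CPM in Sox2-negative cells of batches A and B and 204 and 130 in Sox2-positive cells.

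Genes whose spans overlap the 5 in the annotation were checked, because the strand setting of the counting is not given in the sources used here. Reads from sequence shared by transcripts of overlapping genes could then be assigned to either. The antisense gene 6330403L08Rik, which overlaps Pdgfa, had at most 78 counts in any library, where Pdgfa had 121 to 1464. Ddi1, inside Pdgfd on the other strand, had at most 37 counts and averaged 10.3 and 13.2 counts in Sox2-negative cells of batches A and B, against 0.667 and 1.00 in Sox2-positive cells. The lowest Pdgfd values in Sox2-negative libraries were 5 or 6 counts. Overlap was judged from gene spans and not from exons, so whether Ddi1 reads bear on the Pdgfd counts was not tested. The other 6 overlapping genes had at most 8 counts each.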

How the data were processed

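Smart-seq2 libraries of sorted incisor cells, 23 in all, were grouped by the batch and the population in their labels. The deposited values are estimated counts per gene, which the authors made with FastQC, Trimmomatic and Salmon on mm10, per the submitters' processing notes, with versions not given in the sources used here. The values are not scaled to depth, but a per-gene adjustment can be part of them, since few are whole numbers while column totals nearly are. They were rounded to whole numbers. Symbols came from GENCODE M21 by Ensembl identifier without its version (54094 of 54347 matched), and gene spans and transcript lengths from the same annotation.

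Differences were tested with edgeR 4.0.16 in R 4.3.3 (TMM scaling, filterByExpr with a minimum count of 10, quasi-likelihood F test, two-sided), with batch as a covariate over all 23 libraries, within each batch, and as contrasts of 4 group means for the interaction and the batch differences. P-values were adjusted by the Benjamini-Hochberg method over all genes tested and called under 0.05. The SE is the absolute log2 difference divided by the square root of F, and 95% intervals are built from it. CPM used TMM-scaled totals. Ligand shares were compared by exact permutation tests within batches. Log2 CPM for profile likeness had a prior count of 2. Floors of 3 counts cover counting error only, since reads are not independent molecules. Replicates of a group all differed by more than counting noise (smallest chi-square over its degrees of freedom, 5.19).

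The genes named were the 5 PDGF genes, the 3 nearest in profile to each, and from each pathway list the 2 called higher and the 2 called lower with the highest mean CPM. Some genes that this rule selects are not reported here. Markers are named from 11 cell type lists. These genes and lists were chosen with earlier results of these data known. Alternatives were DESeq2 1.42.0, limma-voom (limma 3.58.1) with quality weights, RLE and total-count scaling, no filter or a mean of 10 counts, other transcript lengths, a replicate block, batch B without libraries 1 and 2, and leaving out each library. The fits were tested on simulated data. ATAC-seq data of the study were not used here.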

Additional observations from a re-analysis of the deposited data

How the results depend on the processing

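Of 1084 values recomputed under the alternatives, 1021 kept their direction and their side of the threshold (for counts, stayed within 1.5 times), 747 of 782 when a single library was left out and 274 of 302 otherwise. The population calls of Pdgfa and Pdgfra held over both batches (31 alternatives) and in batches A and B (19 each), as did those of Pdgfb over both batches and in batch A. Causes of the changes listed here were not tested.

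The population difference of Pdgfc over both batches passed with DESeq2 (0.58), a mean of 10 counts (0.61) and total-count scaling (0.69), and ranged from 0.47 to 0.75 with single libraries left out, passing without batch A Sox2-negative 3 or 5, batch A Sox2-positive 1 or 6, batch B Sox2-negative 3 or 4, or batch B Sox2-positive 6 or 7. That of Pdgfd was 1.00 with limma-voom. In batch B, leaving out libraries gave 0.21 to 0.50 for Pdgfc (passing without Sox2-negative 4) and 0.97 to 2.02 for Pdgfd. The interaction of Pdgfa was 0.042 with limma-voom and -0.28 to 0.16 with libraries left out, that of Pdgfb 1.47 with DESeq2 and 1.25 to 1.68, and that of Pdgfd 2.95 with DESeq2, 2.93 without a filter and 2.47 to 3.58. The batch difference in Sox2-negative cells ranged from -0.0723 to 0.36 for Pdgfa and from -1.83 to -1.41 for Pdgfb. In Sox2-positive cells that of Pdgfa was -0.0101 with total-count scaling and -0.0117 to 0.14 with libraries left out, that of Pdgfb -0.34 to 0.0222, and that of Pdgfra 0.63 with limma-voom (passing) and 0.42 to 0.77. That of Pdgfd passed with DESeq2 (1.76), limma-voom (2.21) and no filter (1.78). Share differences with libraries left out were -2.07 to 0.12 percentage points for Pdgfc and -11.1 to -6.88 for Pdgfd in batch A, and -1.90 to 0.74 for Pdgfd in batch B.

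Without batch B libraries 1 and 2, the batch B population differences were 0.26 for Pdgfb, -0.057 for Pdgfc and 1.12 for Pdgfd (no longer passing), and the batch difference of Pdgfc in Sox2-positive cells was 1.15 (no longer passing). The batch B share differences of Pdgfa (24.4 percentage points), Pdgfb (-4.37) and Pdgfc (-19.5) then had an exact permutation p of 0.0476, the smallest that 5 against 2 libraries allow, and an adjusted p of 0.0635. Counts of all genes called were 481 for the interaction (1210 with all libraries), 754 for batch in Sox2-negative cells (1924; 2887 with DESeq2) and 1159 in Sox2-positive cells (1785; 3313 with limma-voom).

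Same-numbered libraries of the populations were not treated as pairs in the main fits. Of 10 such pairs, 0 had a correlation of deviations over 0.1, and 1 Sox2-negative library correlated best with its own number. Low correlations cannot show whether the libraries were paired. With the replicate number within a batch as a block, the interaction count was 557 and Pdgfc passed over both batches (0.83). For the batch differences the block joined libraries of the same number across the batches, although these came from other mice. With that block Pdgfd passed between batches in Sox2-positive cells (2.25), which says nothing about pairing of the populations. Total-count scaling moved the median of all genes by 0.12 in the population difference over both batches and by -0.15 in the Sox2-negative batch difference. It changed the split of higher against lower calls from 1005 and 919 to 661 and 1388 in Sox2-negative and from 833 and 952 to 666 and 1214 in Sox2-positive cells. Depth limits Pdgfd most, with 2 counts in its lowest library.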
